A study of Mus musculus with 13 samples.

Results

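The smooth muscle contractile genes are a family of actins, a myosin and the proteins that bind or regulate them in contractile filaments. The set comprised 10 genes: Acta1, Acta2, Actg2, Cnn1, Tagln, Myl9, Tpm1, Tpm2, Cald1 and Myh11. A gene was measured where the platform annotation gives a transcript cluster its symbol and no other, and this held for 9 of the 10 genes, each with 1 cluster, among 14860 genes with such a cluster and 23332 clusters in all. No level of Myl9 was analysed here, and only its promoter is counted. The genes were followed on 13 Affymetrix mouse exon arrays of fibroblasts on their way to induced pluripotent stem (iPS) cells, with values on the log2 scale. Parental mouse embryonic fibroblasts (MEFs), 6C-secondary MEFs at day 0 and 1B-secondary MEFs at day 0 were untreated. Both secondary lines carry reprogramming factors under a doxycycline (Dox)-inducible promoter, and Dox was given at 1.5 µg per ml. The labels used here do not name the factors, and the series' text speaks of 6C cells as clones, so each line stands for its own derivation only. The 6C cells were sampled at days 2, 5, 8, 11, 16 and 21 of Dox, and as secondary iPS cells at day 30. The 1B cells were sampled at day 5 of Dox and after 5 days of Dox followed by 5 days without it. A further array held 6C-primary iPS cells. Both iPS arrays are labelled Dox independent, although their agent label names Dox. All cells grew in medium for mouse embryonic stem cells.

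In smooth muscle, actin filaments slide along myosin when the regulatory light chain of myosin is phosphorylated, and calponin, caldesmon and tropomyosin on the filament tune that movement. Fibroblasts that turn into myofibroblasts assemble the same proteins into stress fibres, and alpha smooth muscle actin is their usual marker. Transcription of many of these genes depends on serum response factor (SRF), which binds CArG boxes in their promoters and is driven by its partners of the myocardin family, some of which respond to the state of the actin cytoskeleton.

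The promoters of Acta1 and Acta2 are shown because both hold CArG boxes or close forms of them, and that of Cnn1 because the gene had among the largest decreases while its window holds neither. They are RefSeq sequences of the build GRCm38.p6, from 250 bases before to 50 bases from the start of the gene, in the gene's direction. Capitals mark a CArG box, or a CArG box in which 1 of the 6 middle letters is C or G. Each pattern reads the same on both strands. The windows lie at chr8:123894726-123895025 on the minus strand (Acta1), chr19:34255324-34255623 on the minus strand (Acta2) and chr9:22099003-22099302 on the plus strand (Cnn1).
Acta1: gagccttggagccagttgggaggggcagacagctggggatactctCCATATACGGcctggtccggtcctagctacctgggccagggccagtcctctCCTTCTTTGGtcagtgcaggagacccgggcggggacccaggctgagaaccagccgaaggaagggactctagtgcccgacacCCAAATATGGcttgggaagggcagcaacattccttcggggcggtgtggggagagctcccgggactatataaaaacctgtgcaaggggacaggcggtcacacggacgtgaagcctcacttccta
Acta2: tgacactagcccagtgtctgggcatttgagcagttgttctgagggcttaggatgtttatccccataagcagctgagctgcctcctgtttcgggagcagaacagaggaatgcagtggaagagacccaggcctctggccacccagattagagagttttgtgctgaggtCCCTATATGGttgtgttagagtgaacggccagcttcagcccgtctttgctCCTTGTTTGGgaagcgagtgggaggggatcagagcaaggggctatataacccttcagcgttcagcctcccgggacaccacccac
Cnn1: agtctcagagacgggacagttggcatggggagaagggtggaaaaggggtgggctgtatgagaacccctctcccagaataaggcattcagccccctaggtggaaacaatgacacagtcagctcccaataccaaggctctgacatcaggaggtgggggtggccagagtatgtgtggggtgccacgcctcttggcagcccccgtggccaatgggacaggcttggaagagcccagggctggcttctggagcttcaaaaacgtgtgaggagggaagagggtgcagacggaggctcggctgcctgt
The CArG box of Acta1 began 73 bases before the start and its close forms 205 and 154 bases before it. The close forms of Acta2 began 84 and 34 bases before the start. Of the 7 genes of the set with an entry in the table, 2 (Acta1 and Myl9) held a CArG box and 3 (Acta1, Acta2 and Myl9) a close form, while a CArG box was present in 1.63% and a close form in 8.5% of 32851 promoter windows. No match was present in the windows of Cnn1, Tpm1, Tpm2 and Cald1, which says only that these letters are not in these 300 bases.

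Array medians ranged from 6.34 (6C at day 0) to 6.67 (6C at day 5), so the untreated 6C array was the dimmest. By their names the arrays belonged to 4 runs: days 0 and 21 of 6C (run 1), the parental cells, the primary iPS cells and days 2, 5, 11 and 16 of 6C (run 2), line 1B (run 3), and day 8 of 6C with the secondary iPS cells (run 4). In 6C, an array labelled day 0 bears a name with day 2 and no Dox, and an array labelled day 8 a name with day 9; the labels were used. Replicate arrays of a single condition were not among the 13. Fibroblast markers were present in the untreated cells, with a mean level over 13 markers of 11.4 to 12.7 on these 3 arrays. Single markers differed among them to unlike degrees. In parental, 6C and 1B cells Lum read 12.48, 8.26 and 7.80, while Col1a1 read 13.90, 13.96 and 13.46. The skeletal muscle regulators Myod1 and Myog stayed between 5.29 and 6.15 and between 5.61 and 6.30 over all arrays, and Myocd, the smooth muscle partner of SRF, between 5.27 and 6.64. Myh11 encodes the myosin heavy chain that marks differentiated smooth muscle.

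**Figure D1:**
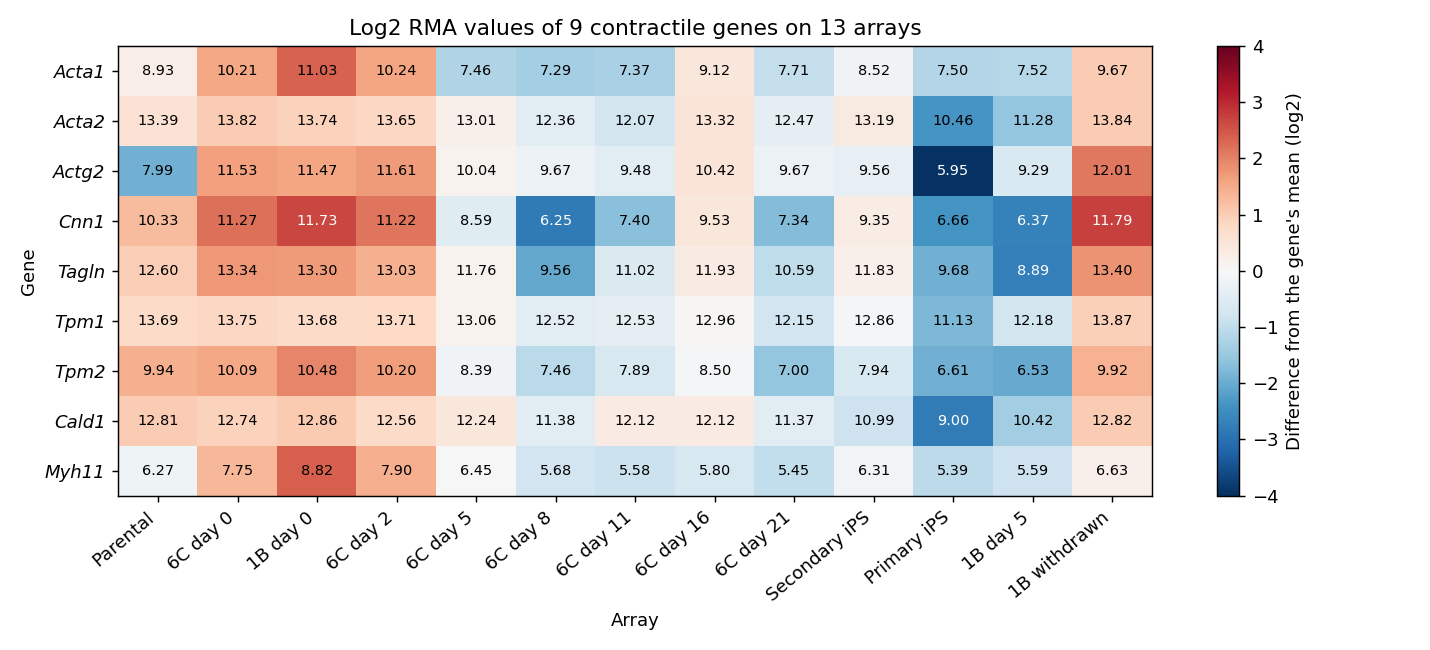
Log2 RMA values of the 9 measured contractile genes (rows) on the 13 arrays (columns); the number is the level and the colour its difference from the gene's mean over all arrays, in log2 units. Acta2 goes from 13.82 in untreated 6C cells to 10.46 in primary iPS cells, and Actg2 is at 7.99 in parental cells and above 11 in the other untreated cells.

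The untreated cells were compared first, because every later difference starts from them. Acta2, alpha smooth muscle actin, stood at 13.39 in parental cells, 13.82 in 6C and 13.74 in 1B. Actg2, the gamma actin of enteric smooth muscle, stood at 7.99, 11.53 and 11.47 in the same order. The parental array was thus far below the secondary lines for Actg2 and close to them for Acta2. Acta1, the actin of skeletal muscle, also expressed at lower levels elsewhere, was at 8.93 in parental cells, 10.21 in 6C and 11.03 in 1B, and Myh11 at 6.27, 7.75 and 8.82. Against parental cells, 3 of the 9 genes (Acta1, Actg2 and Myh11) were at least 2-fold higher in 6C at day 0 and 4 (these and Cnn1) in 1B at day 0, and none was 2-fold lower. Over all clusters, 3.75% and 5.55% were at least 2-fold higher. With each array centred on its median, 5 genes were at least 2-fold higher in 6C at day 0, as were 7.25% of all clusters. Cald1 (12.74 to 12.86) and Tpm1 (13.68 to 13.75) differed little among the 3 arrays. These are differences between single arrays, without a test. Whether probes of the 3 actin genes, whose coding sequences are alike, also bind each other's RNA was not tested.

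In the 6C series the question was when these genes changed under Dox. At day 2 no gene of the set was 2-fold lower or higher, where 2.7% and 11.9% of all clusters were: the differences from day 0 lay between -0.31 (Tagln) and 0.15 (Myh11), with a median of -0.04 (-0.32 with each array centred on its median). The median over all clusters was 0.25 at that day and 0.20 at day 5. By day 5 all 9 genes were below day 0 and 6 of them at least 2-fold (Acta1, Actg2, Cnn1, Tagln, Tpm2 and Myh11), where 5.86% of all clusters were 2-fold lower. With centring these were 8 genes and 11.0% of all clusters. By day 8 all 9 were at least 2-fold lower (8.37% of all clusters). The count was 8 at day 11 (7.32% of all clusters), 6 at day 16 (6.86%), 9 at day 21 (9.08%) and 7 in secondary iPS cells (8.92%). No gene of the set was 2-fold higher on any of these arrays. In bulk RNA, fewer cells with a transcript and less transcript per cell cannot be told apart.

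Cnn1, calponin, an actin-binding inhibitor of the myosin ATPase, read 11.27, 11.22, 8.59, 6.25, 7.40, 9.53 and 7.34 on the 7 days in order (0, 2, 5, 8, 11, 16 and 21) and 9.35 in secondary iPS cells. Its difference of -5.02 at day 8 was the lowest of all 23332 clusters at that day. Tagln, the actin-bundling transgelin (SM22 alpha), read 13.34, 13.03, 11.76, 9.56, 11.02, 11.93 and 10.59 on these days, then 11.83. Both genes were thus lowest at day 8, the array of run 4, and higher at day 16 than on either side of it.

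Among the actins, Acta2 read 13.82, 13.65, 13.01, 12.36, 12.07, 13.32 and 12.47 on the same days, and 13.19 in secondary iPS cells. Its day 16 value lay only 0.50 below day 0. Acta1 showed its difference by day 5, 10.24 on the day 2 array and 7.46 on the next, with 7.29 to 7.46 from day 5 to day 11 and 9.12 on day 16. Actg2 read 11.61, 10.04, 9.67 and 9.48 from day 2 to day 11 in order.

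The tropomyosins, which wind along the actin filament, differed in the size of their decreases. Tpm2, the beta tropomyosin, read 10.09, 10.20, 8.39, 7.46, 7.89 and 8.50 up to day 16 and lay 3.09 below its starting level on day 21 (a difference of -3.09). Tpm1 differed less, with 13.75 before Dox, 12.52 on day 8 and 12.15 on day 21. Cald1, caldesmon, which blocks myosin from actin, read 12.74, 12.56, 12.24, 11.38, 12.12, 12.12 and 11.37 over the 7 days. Myh11 read 7.75, 7.90 and 6.45 on the first 3 of them and 5.45 to 5.80 from day 8 to day 21. Tpm2, Cnn1 and Tagln therefore spanned more of the scale than Tpm1 and Cald1.

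**Figure D2:**
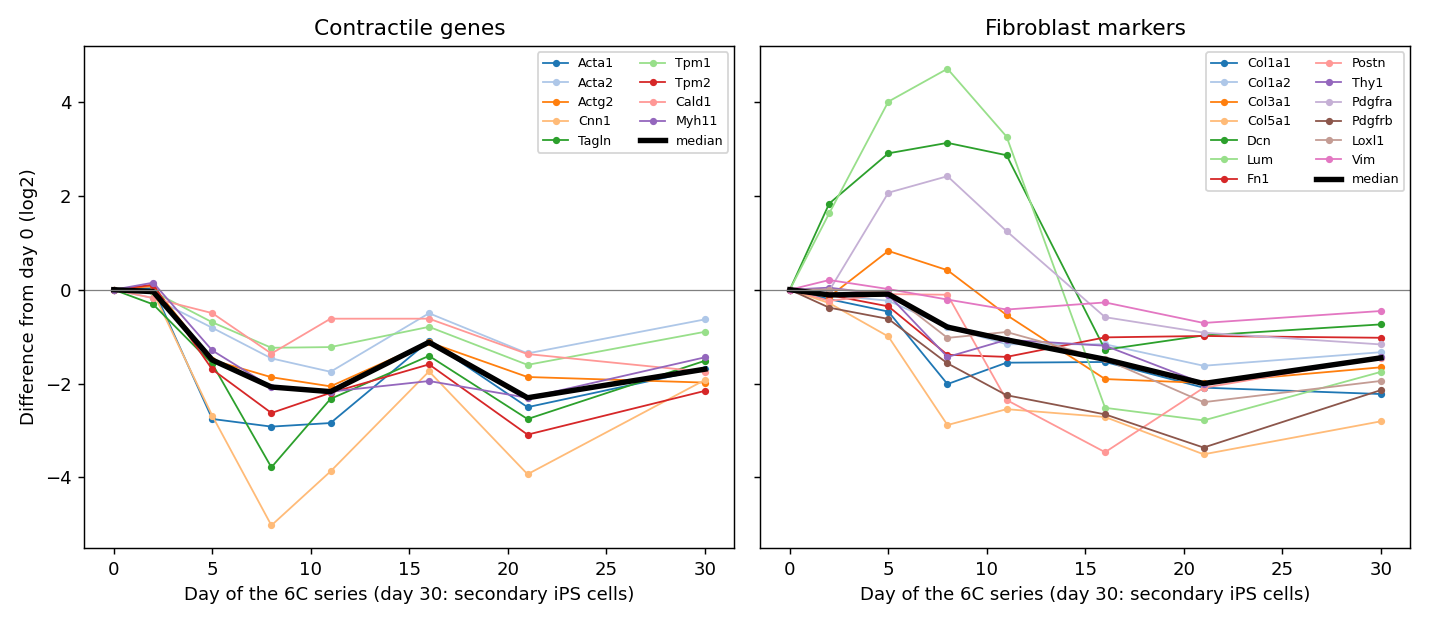
Difference from day 0 (log2) in the 6C series for the 9 contractile genes (left) and 13 fibroblast markers (right), by day, 1 array per day, with the secondary iPS cells at day 30; the thick line is the median of the list. The contractile median reads -0.04, -2.17, -1.12 and -2.30 on days 2, 11, 16 and 21, and the fibroblast median goes from -1.07 at day 11 to -1.48 at day 16.

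The course was not a steady decline. From day 11 to day 16, both in run 2, 8 of the 9 genes were higher and Cald1 was level, with 3 at least 2-fold higher: Cnn1 by 2.13, Acta1 by 1.75 and Acta2 by 1.25. Of all clusters 5.33% were 2-fold higher. From day 16 to day 21 all 9 were lower, 4 of them at least 2-fold (Cnn1, Tpm2, Acta1 and Tagln), where 6.69% of all clusters were. The 8 genes above both neighbouring days at day 16 compare with 39.4% of all clusters, and the 2 genes 2-fold above both (Acta1 and Cnn1) with 2.03%. Fibroblast markers behaved otherwise between days 11 and 16: their median difference was -0.41, with 3 of 13 higher and 5 at least 2-fold lower, against 0.92 for the contractile genes and 0.02 for all clusters. Postn, a matrix gene of fibroblasts, went from 9.87 to 8.76. Day 16 is a single array, and its part in this peak was not tested. Day 21 lies in another run than day 16.

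With a cubic polynomial of day over these 8 arrays and limma's moderated F test, 1 gene, Myh11, was called as fallen (adjusted p = 0.0436, largest fitted change -2.59, at day 16), where 1.93% of all clusters were called lower and 4.43% higher (a call needed an adjusted p under 0.05 and a fitted change of at least 2-fold). Myh11 read 5.45 to 5.80 from day 8 to day 21, below these arrays' medians of 6.44 to 6.62, and RMA compresses low values. The adjusted p-values of the other genes ran from 0.106 (Actg2) to 0.287 (Acta2). All 9 curves lay below day 0 at the day of their largest fitted change, with a median of -2.59 against 0.18 for all clusters, and 5 of the 9 had an unadjusted p under 0.05 with a decrease, where 9.15% of all clusters did. The call of Myh11 did not survive the removal of any array (adjusted p = 0.068 to 0.116), nor run as a block (adjusted p = 0.0787) or the untreated mean in place of day 0 (adjusted p = 0.0515). With run as a block all 9 largest fitted changes were still negative, but 6 of them (Acta1, Acta2, Actg2, Cnn1, Tpm1 and Tpm2) moved by over 1.5 times, for example Acta1 from -3.02 to -6.51 and Cnn1 from -4.36 to -7.62, with a median of -3.97. A cubic curve has too few turns for a fall, a rise to day 16, a new fall and a rise at day 30. The values of Cnn1 took this course.

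Day 5 was the time at which both lines were sampled, and the difference from day 0 was larger in 1B for all 9 genes. In 1B all 9 genes were at least 2-fold below day 0, where 12.7% of all clusters were. Cnn1 was at 11.73 at day 0 and 6.37 at day 5 in 1B, against 11.27 and 8.59 in 6C. Tagln was at 13.30 and 8.89 in 1B, a 21.3-fold difference, against 13.34 and 11.76 in 6C. The median difference was -3.23 in 1B and -1.50 in 6C, while Acta1 reached nearly the same level in both, 7.52 and 7.46. In both lines alike, 6 of the 9 genes were at least 2-fold lower (Acta1, Actg2, Cnn1, Tagln, Tpm2 and Myh11), where 1.19% of all clusters were. The contrast between the lines rests on 1 array each and was not tested. Fibroblast markers moved with it: their median difference was -3.97 in 1B, with 11 of 13 at least 2-fold lower. In 6C it was -0.09, with 8 of 13 lower, none of them 2-fold, and 5 higher, 3 of them at least 2-fold. These medians are without centring, and the median of the 6C array was 6.67 at day 5 against 6.34 at day 0. Among these markers Dcn rose in both lines, from 9.37 to 10.73 in 1B and from 10.19 to 13.10 in 6C. The part of the fibroblast list in the result was not tested.

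In limma's joint fit of these 4 arrays, blocked by line and with 1 residual degree of freedom, the median difference of the contractile genes was -2.26 against 0.05 for all clusters. Cnn1 differed by -4.02 (SE 0.76) and Acta1 by -3.13 (SE 0.40). None of the 9 genes passed adjustment, and none of all clusters did (0.0% called; lowest adjusted p = 0.335), while 7 of the 9 had an unadjusted p under 0.05, all lower, against 2.15% of all clusters that were lower at that p. The exceptions were Tpm1 and Cald1. With each array centred on its median, 6 of the 9 genes were called lower, as were 1.11% of all clusters, and with quantile normalization none of either.

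Withdrawal of Dox in 1B asked whether the decrease lasted. After 5 days without Dox all 9 genes were at least 2-fold above their day 5 value, where 10.8% of all clusters were. Acta2 read 13.74 before Dox, 11.28 on it and 13.84 after withdrawal. Cnn1 read 11.73, 6.37 and 11.79 in this order, and Tagln 13.30, 8.89 and 13.40. These 3 genes, with Actg2 (11.47, 9.29 and 12.01), Tpm1 (13.68, 12.18 and 13.87) and Cald1 (12.86, 10.42 and 12.82), regained 98.4% to 125% of their day 5 difference on the log2 scale. Tpm2 regained 85.9%, Acta1 61.2% and Myh11 32.3%. Acta1 stood at 9.67 after withdrawal against 11.03 at day 0, and Myh11 at 6.63 against 8.82. These were the 2 genes still at least 2-fold below day 0, where 7.41% of all clusters were. Myh11 read 5.59 at day 5, below that array's median of 6.42, and RMA compresses low values. The day 5 array enters both differences, and these values have no test.

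**Figure D3:**
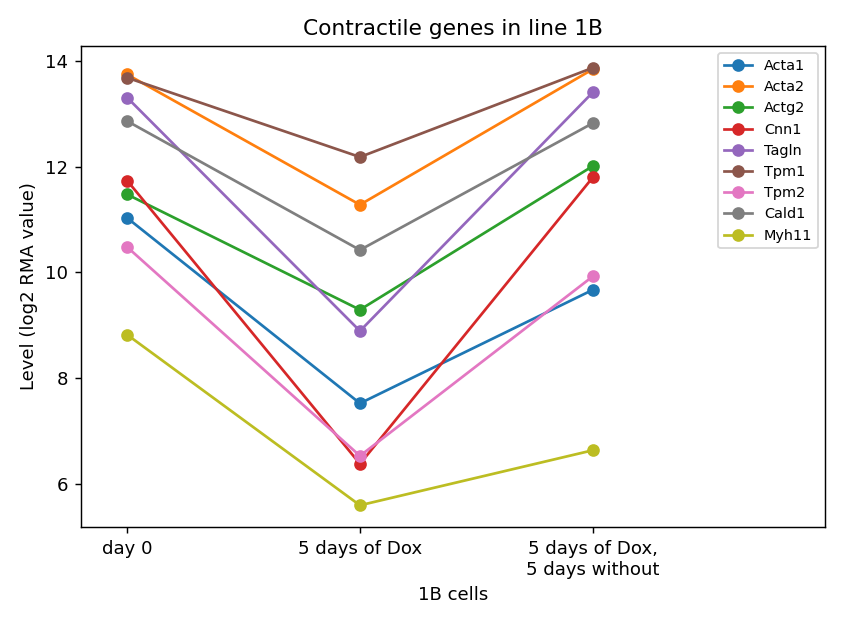
Level (log2 RMA value) of the 9 contractile genes in 1B cells at day 0, after 5 days of Dox and after 5 further days without Dox, 1 array each. Every gene is lower at day 5 and higher after withdrawal, and Myh11 ends at 6.63 against 8.82 at day 0.

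The iPS cells were compared with the untreated cells, 2 arrays against 3. By limma, Tpm2 fell by 2.90 on the log2 scale (SE 0.44, adjusted p = 0.0237) and Cald1 fell by 2.81 (SE 0.58, adjusted p = 0.0415). Tpm2 stood at 9.94, 10.09 and 10.48 on the untreated arrays and at 7.94 and 6.61 on the iPS arrays, so the groups did not overlap. Cald1 stood at 12.81, 12.74 and 12.86 and at 10.99 in secondary iPS cells, with primary iPS cells 1.99 lower still. These 2 of 9 genes were called lower and none higher, where 3.32% of all clusters were called lower and 5.44% higher.

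The other 7 did not pass, with differences from -3.10 (Cnn1, adjusted p = 0.075) to -1.72 (Tpm1, adjusted p = 0.0938) and the highest adjusted p for Actg2 (0.326, 95% interval -6.17 to 1.01). Leaving out 1 array moved these differences widely: from -4.45 to -1.76 for Cnn1, from -2.58 to -0.85 for Tpm1, from -3.19 to -0.46 for Acta2, from -4.38 to -0.78 for Actg2 and, among the called genes, from -3.81 to -1.81 for Cald1. Unadjusted p-values were under 0.05 for 6 genes, all lower, against 13.3% of clusters that were lower at that p. In 7 of the 9 genes both iPS arrays lay below all untreated arrays, which held for 22.1% of all clusters; the exceptions were Actg2 and Myh11, for which the parental array was low. The median difference was -2.33 against -0.03 for all clusters.

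The iPS arrays themselves stood apart. Acta2 was at 13.19 in secondary and 10.46 in primary iPS cells, and Actg2 at 9.56 and 5.95. All 9 genes were higher in the secondary cells and 8 of them at least 2-fold, where 7.94% of all clusters were. Fibroblast markers moved the same way, higher in 13 of 13 and at least 2-fold in 12, with a mean level of 10.2 in secondary and 7.43 in primary cells; their part in the result was not tested. Without the secondary iPS array 6 of the 9 genes were called lower, as were 2.06% of all clusters, and without any other array (the primary iPS, parental, 6C day 0 or 1B day 0 array) none was. Within run 2, primary iPS cells lay below parental cells for all 9 genes and at least 2-fold for 8 (19.0% of all clusters), with a median of -2.92.

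All cells on Dox were also set against all untreated cells, 7 arrays (6C at days 2 to 21 and 1B at day 5) against 3, to ask for a change common to the days on Dox; the spread then holds the change between days, and the untreated arrays are those of the iPS comparison. No gene of the set was called by limma, where 0.159% of all clusters were called lower and 2.31% higher. The lowest adjusted p was 0.0984, for Tpm2 (-2.17, SE 0.65), and 8 of the 9 genes, all but Actg2, had an unadjusted p under 0.05 with a decrease, against 7.35% of all clusters. Cnn1 differed by -3.01 (SE 0.97) and Actg2 by -0.31 (95% interval -1.96 to 1.35). The difference of Actg2 turned to 0.29 without the 6C day 0 array and to 0.26 without that of 1B.

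Over all 7 Dox arrays, 1 gene (Cald1) lay below all untreated arrays throughout, as did 1.69% of all clusters. Without the 6C day 2 array, in which the genes stood at untreated levels, 5 of the 9 were called lower, as were 1.68% of all clusters. Leaving out that array, the remaining 6 Dox arrays lay below all untreated arrays for 6 genes (Acta2, Cnn1, Tagln, Tpm1, Tpm2 and Cald1), against 4.8% of all clusters. That array was set aside with the levels of these genes known. Both counts without it are therefore descriptions, and the shares of all clusters are not a like comparison. Within runs, all 9 genes were lower in run 1 (day 21 against day 0, median -2.30) and in run 3 (1B, median -3.23). All 9 were at least 2-fold lower in both, where 9.08% and 12.7% of all clusters were. In run 2 (days 2, 5, 11 and 16 against parental cells, median -0.55) 7 of 9 were lower, 2 of them at least 2-fold. There Actg2 was higher by 2.40 and Myh11 by 0.16, and no share of all clusters is given for these means. Run 4 held no untreated array. With run as a block, Cnn1 differed by -3.09 (SE 1.03) and none was called.

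**Figure D4:**
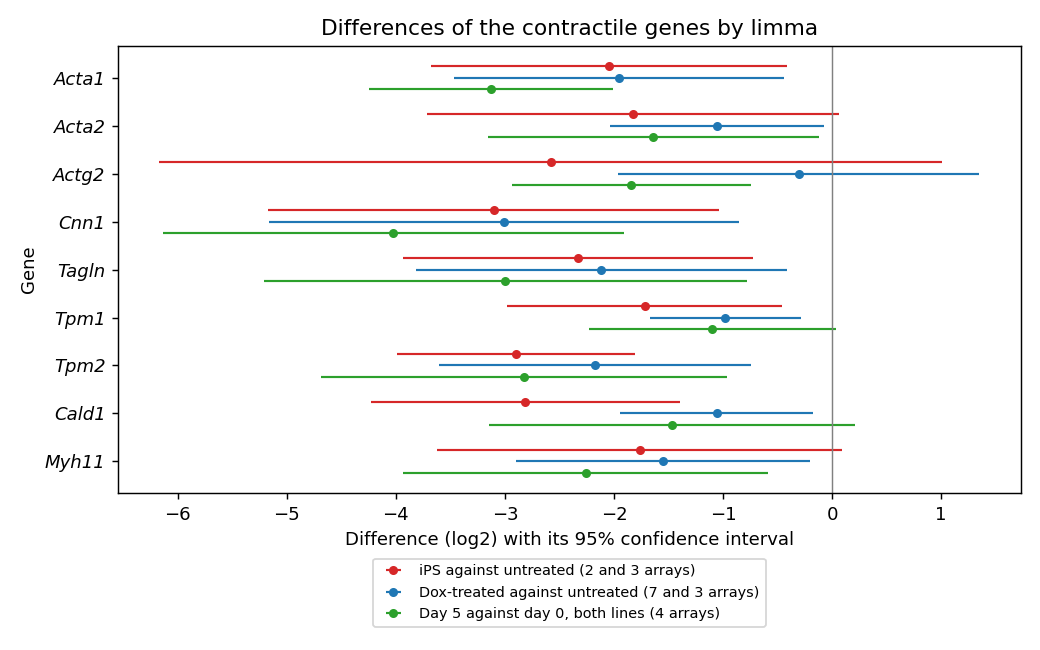
Differences (log2) of the 9 contractile genes with 95% confidence intervals by limma, for iPS against untreated cells, Dox-treated against untreated cells, and day 5 against day 0 in both lines. All points lie below 0; the intervals of Actg2 reach 1.01 and 1.35 in the first and the second of these comparisons.

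Among the genes known to regulate the set, 11 were measured. None was called between iPS and untreated cells, a count that cannot be set apart from the 3.32% of all clusters called lower and the 5.44% called higher, with a median difference of -0.53; Smad3, which carries TGF-beta signals, differed by -2.14 (adjusted p = 0.0551), Mef2c by -2.04 (adjusted p = 0.172), Mrtfa, an actin-sensing partner of SRF, by -1.38 (adjusted p = 0.0559) and Foxo4 by 1.03 (adjusted p = 0.0688). On Dox 1 of the 11 was called, where 2.31% of all clusters were called higher: Foxo4, a forkhead factor known to restrain myocardin in smooth muscle, rose by 1.82 (SE 0.42, adjusted p = 0.0495 by limma). It stood at 8.48, 8.05 and 8.27 on the untreated arrays, at 8.78 at day 2 of 6C and between 9.48 and 10.81 on the other Dox arrays. After withdrawal in 1B it stood at 8.47. Srf itself was at 9.91, 9.05 and 9.66 on the untreated arrays and between 7.87 and 9.37 on Dox, a difference of -1.01 that did not pass (adjusted p = 0.109). Klf4, a reprogramming factor that is also a known repressor of smooth muscle genes, was between 8.54 and 9.43 in untreated cells and between 9.27 and 10.02 on Dox. The difference of 0.46 did not pass (adjusted p = 0.345 by limma), and in 1B Klf4 read 9.37 at day 0 and 9.27 at day 5. The labels do not say whether the lines carry Klf4, and whether its cluster reads RNA of an inducible copy was not tested.

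Other genes of the contractile apparatus shared the direction in part. Of 17 further smooth muscle genes, 3 were called lower in iPS cells and none higher. Of all clusters 3.32% were called lower and 5.44% higher in this comparison, which holds for the lists below too. The 3 genes were Hspb6, with a change of -3.70, Itga8 with -2.45 and Csrp1 with -1.68. Differences were negative for 13 of the 17, with a median of -1.04, and positive for the others, up to 1.22, without a call. Hspb6, a small heat shock protein of muscle, had an adjusted p = 0.0113 by limma. Over the 6C days 2 of the 17 were called lower (Hspb6 and Itga8) and 1 higher, where 1.93% and 4.43% of all clusters were. The gene called higher was Ppp1r14a, an inhibitor of myosin phosphatase, at 8.14 at day 0 and 10.53 at day 21 (adjusted p = 0.0354 by limma's F test). The regulators, the non-muscle paralogs and the SRF targets named below held no call over the 6C days. Of the stress fibre genes 1 was called higher, Myo1e. Of 10 actin, tropomyosin and myosin paralogs of non-muscle cells, 3 were called lower in iPS cells: Myh9 (-2.19), Cnn2 (-1.79) and Tpm4 (-1.55). Actb, beta actin, stood between 13.51 and 14.31 on all arrays. Of 13 stress fibre and focal adhesion genes 4 were called lower in iPS cells. These were Vcl (vinculin), lower by 2.32, Zyx (zyxin) by 2.19, Tln1 (talin) by 1.83 and Actn1 (alpha-actinin) by 1.64. Of 10 targets of SRF and its partners or of related mechanical signals outside muscle 4 were called lower in iPS cells. Among them were Ccn1, lower by 3.10, Fhl1 by 2.15 and Ccn2 by 2.12. No gene of these 4 lists was called on Dox against untreated cells, where medians were -0.99, -0.47, -0.46 and -1.24 in the order given. Of these genes Ankrd1, a stress-responsive muscle ankyrin protein, had the largest decrease at day 5 in 1B, from 11.99 to 6.93. It returned to 12.18 after withdrawal, and in 6C it read 6.59, 8.65 and 5.71 on days 11, 16 and 21. In parental cells it stood at 5.65, below all Dox arrays. The targets of SRF and its partners as a list went otherwise from day 11 to day 16, with 3 of 10 higher and 7 lower (median -0.05).

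Markers of other muscle and mural cells moved with the set in part. The 10 skeletal muscle markers other than Acta1 and Mylpf lay between 2.73 and 6.30 on all arrays, and no gene of them varied by more than 1.47. Mylpf, a light chain of fast skeletal muscle, was the exception and rose in iPS cells, to 8.62 in secondary and 9.25 in primary cells, against 5.28 to 5.49 in untreated cells. Of 7 pericyte markers, Cspg4 was called lower in iPS cells and over the 6C days, where 3.32% and 1.93% of all clusters were. In the iPS, 6C and Dox fits 6 of the 7 had negative differences (medians -0.28, -0.41 and -0.53). Of all clusters 51.7%, 47.6% and 49.9% had negative differences in these fits. In 1B all 7 were lower at day 5 (median -0.91, against -0.01 for all clusters). Of them 3 were at least 2-fold lower, where 12.7% of all clusters were. All 7 were higher after withdrawal than at day 5 (median 0.84, against 0.02 for all clusters). Among 6 cardiac markers, Nppb, a natriuretic peptide, rose on Dox (change 2.28, SE 0.48, adjusted p = 0.0374 by limma) and over the 6C days (adjusted p = 0.0394), and no other was called. Of all clusters 2.31% and 4.43% were called higher in these 2 fits. Epithelial markers had a mean level over 5 markers of 6.04 to 6.85 on the untreated arrays and 10.8 to 11.2 on the iPS arrays. In 1B, 4 of these 5 were at least 2-fold higher at day 5, while Krt18, a keratin, went with the contractile genes, reading 8.17, 5.70 and 10.71 before Dox, on it and after withdrawal. After withdrawal all 5 were at least 2-fold above day 0. The part of these lists in the results was not tested.

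The 9 genes resembled each other over the 13 arrays. Pearson's r between pairs had a median of 0.83 over 36 pairs, from 0.63 (Cald1 and Myh11) to 0.98, as a description of arrays that share lines, runs and days. Tpm2 was closest to the mean of the others (r = 0.95) and Actg2 farthest (r = 0.74). By the mean of the 9 genes, each centred on its own mean, the arrays ranked from 1B at day 0 (1.71), 6C at day 0 (1.42), 6C at day 2 (1.37) and 1B after withdrawal (1.36) down to 6C at day 8 (-1.06), 1B at day 5 (-1.52) and primary iPS cells (-2.15). The spread over the genes of an array (SD 0.38 to 1.02) exceeds the steps between neighbours in the first 4. Among 14450 other named genes, the profiles most like this mean were those of Cap2 (r = 0.97), Gng11, Plekho1, Fads3, Mical2, Msn, Cdh2, Fez2, Myh9 and Rtn4 (r = 0.95). Cap2 binds actin, Mical2 oxidises it, Msn (moesin) links it to the membrane and Myh9 is the non-muscle myosin heavy chain. Cap2, as an example, read 9.69, 10.28, 7.01 and 7.70 on days 0, 2, 8 and 16 of 6C, and 5.81 in primary iPS cells.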

How the data were processed

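RNA of the 13 samples was measured on Affymetrix mouse exon arrays. The authors' deposited values are log2 values per transcript cluster, summarised with RMA; the submitters' processing notes name Affymetrix Expression Console and mm9, without versions. The log base was taken as 2 from the range, 0.461 to 14.3. RMA normalizes arrays to each other and compresses low values, and levels cannot be compared between genes. Symbols came from the platform annotation (14996 clusters with 1 symbol, 1019 with several, 7317 with none) and were updated by gene identifier to GRCm38.p6, another build, so no array coordinates are given.

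limma 3.58.1 in R 4.3.3 was run on all 23332 clusters, with Benjamini-Hochberg adjustment over all of them, and calls needed an adjusted p under 0.05 and a 2-fold change. The fits were checked on simulated data with independent noise and no effect of run or line, so that check does not cover such effects. Single arrays were compared by difference only. The labels name no separate cultures, so p-values rest on the spread between arrays of different lines or days. Named genes were all members, up to 4 genes per further list by absolute change, and the 10 most similar profiles. Others (Csrp1, Actb, Myo1e, Srf, Klf4, Ppp1r14a, Postn, Dcn, Lum, Col1a1, Mylpf, Cspg4, Nppb, Krt18, Ankrd1, Myod1, Myog and Myocd) were chosen after their values were seen. Members and lists were chosen with earlier results of these data known. Alternatives were other scalings, a filter, blocks, curves, baselines and each array left out.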

Additional observations from a re-analysis of the deposited data

Results flagged for a closer look

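Some listed genes outside the contractile set moved in opposite directions at day 5 of Dox in the lines, by at least 2-fold in each, and the difference was not tested. The change in 6C minus that in 1B was 8.47 for Lum (4.01 and -4.46), 5.64 for Pdgfra (2.07 and -3.57) and 3.50 for Anpep (1.32 and -2.18). No contractile gene did so.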

How the results depend on the processing

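Other than by line, the block at day 5 (0 contractile genes called with or without it), no paired analysis was possible because the labels number no replicates. Of 9 contractile genes, 2 were called lower in iPS cells, 3 with centring on the median and 2 with quantile normalization; with the filter on low values (mean of at least 6) 5 were, and leaving out an array gave 0 to 6. In the 6C series 1 gene was called, 3 with the filter, 0 with the untreated mean in place of day 0, 0 with run as a block and 0 to 0 without an array. At day 5 in both lines 0 were called and 6 with centring. For Dox against untreated cells 0 were called, and 0 to 5 without an array. The filter tests fewer clusters, and leaving out arrays leaves fewer samples; the cause of the other shifts was not tested. Over all clusters, calls lower and higher in iPS cells were 775 and 1269, and 1501 and 1717 with the filter, 1295 and 1707 with centring, 1299 and 1660 with quantile normalization. Over all clusters in the 6C series, 451 and 1034 were called, 689 and 1078 with centring, 809 and 1114 with quantile normalization, 1124 and 1948 with the filter, 751 and 1000 with the other baseline, and 0 and 0 with run as a block. For Dox, 37 and 538 became 107 and 802 with the filter, 67 and 336 with centring, 65 and 290 with quantile normalization 1 and 58 with run as a block, and 0 and 2 with 6C arrays alone. Leaving out an array gave 1 to 480 and 79 to 448 for iPS cells, 30 to 199 and 112 to 549 in the 6C series, and 0 to 393 and 63 to 993 for Dox. At day 5, 0 and 0 became 259 and 334 with centring. The difference of Actg2 on Dox (-0.31) turned to 0.29 and 0.26 without 6C or 1B day 0, and was -1.48 without the parental array. Of 252 single-array values of the set under centring or quantile normalization, 11 changed sign, each at most 0.15 in size as reported, and none of at least 2-fold did. With centring, counts at least 2-fold lower than 6C day 0 went from 6 to 8 at day 5, 6 to 7 at day 16 and 7 to 8 in secondary iPS cells. The count higher in 6C day 0 than in parental cells went from 3 to 5 (4 with quantile normalization), and that in secondary over primary iPS cells from 8 to 7 with either. Run as a block for iPS cells, and arrays left out at day 5, left no residual degrees of freedom. No gene of the set had a second cluster.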
